A study of Mus musculus with 39 samples.

Results

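Gene expression in CD68-rich atherosclerotic plaque tissue was compared between mice given TRAF6i-HDL and mice given S6K1i-HDL, 2 inhibitors carried by high-density lipoprotein (HDL) nanoparticles. The comparison uses every sample that the labels name TRAF6i-HDL (10) or S6K1i-HDL (9), which is 19 of the 39 samples of the study, and all genes in the count files. The other samples are PBS (10) and mTORi-HDL (10). All mice were female Apoe-/- animals (B6.129P2-Apoe tm1Unc), which lack apolipoprotein E and accumulate plasma cholesterol. They ate a high-cholesterol diet for 12 weeks, were 20 weeks old at treatment, and received 4 intravenous injections within 7 days, with the drug at 5 mg/kg in the nanoparticle arms. Aortic roots were collected 24 hours after the last injection, and CD68-rich areas were cut by laser capture from 6 µm sections, so each sample is plaque tissue rich in macrophages and not a sorted population. The protocol text in the labels speaks of PF-4708671-HDL, of CD40-HDL and of rapamycin-HDL. PF-4708671 is an S6K1 inhibitor and rapamycin an mTOR inhibitor, so CD40-HDL was taken to be the particle of the TRAF6i-HDL samples, which the labels do not state. The protocol also describes an empty HDL particle, and no sample analysed here is labelled with it. Because both arms received HDL, the carrier is shared between them, whereas against PBS the drug and the carrier cannot be told apart. The labels tie no sample to a named animal, so the p-values below measure the spread between these samples.

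TRAF6 is the adaptor protein that carries signals from CD40, a receptor of the tumour necrosis factor family on macrophages, to NF-kB and MAP kinases. S6K1 is the product of Rps6kb1, a kinase that the mTOR complex mTORC1 activates and that phosphorylates ribosomal protein S6 and takes part in the control of translation and cell growth. In plaques, macrophages take up modified lipoproteins and become foam cells, and both pathways are active in such cells. Both agents act on proteins, so the RNA level of the target itself does not report inhibition.

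Depth and RNA composition differed between the arms, and the number of called genes changed when log2 counts or the Rn45s share was added as a covariate. Counts assigned to genes ran from 66602 to 3977229 in the TRAF6i-HDL libraries (1836638 ± 1121559, SD, n = 10) and from 118527 to 6833491 in the S6K1i-HDL libraries (4479531 ± 1866779, SD, n = 9), a difference with an adjusted p of 0.00675 by an exact two-sided permutation test over 92378 divisions of the samples. The share of counts on Rn45s, the ribosomal RNA precursor, was 17.8% ± 8.31 (SD, n = 10) against 37.0% ± 10.3 (SD, n = 9), with an adjusted p of 0.00390 by the same exact test. Each of these p-values was adjusted over 6 library measures. The TRAF6i-HDL shares spanned 2.59% to 28.3% and the S6K1i-HDL shares 14.5% to 47.5%, so the arms overlapped only through S6K1i-HDL replicates 7 (27.2%) and 9 (14.5%). The 100 most abundant genes took 55.1% ± 6.19 of counts in TRAF6i-HDL and 66.0% ± 7.92 in S6K1i-HDL (exact permutation test, adjusted p = 0.0102), while the number of detected genes, 12668 ± 2144 against 13760 ± 2075, did not pass (adjusted p = 0.263). Without S6K1i-HDL replicate 1 that difference, of -1092 genes, became -1778 and passed (exact permutation test, adjusted p = 0.00738). Within TRAF6i-HDL, replicate 7 held 66602 counts and replicate 8 had the lowest Rn45s share, 2.59%, with 430805 counts. Within S6K1i-HDL, replicate 1 held 118527 counts. The series lists S6K1i-HDL replicates 1 to 6 apart from replicates 7 to 9, with no reason given.

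**Figure D1:**
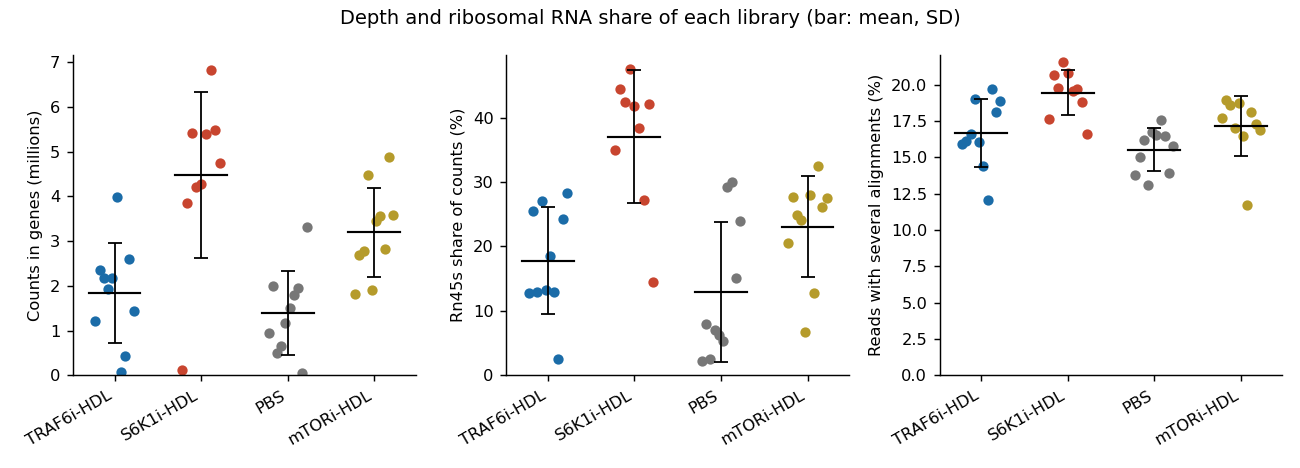
Counts assigned to genes, share of counts on Rn45s (%) and share of reads with several alignments (%) in each of the 39 libraries, by group, with the mean and SD as bars. Most S6K1i-HDL libraries sit above the TRAF6i-HDL libraries in depth and Rn45s share, and S6K1i-HDL replicate 9 has an Rn45s share of 14.5%, inside the TRAF6i-HDL range.

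Of 10411 genes tested, 125 (1.2%) were higher and 41 (0.394%) lower in TRAF6i-HDL than in S6K1i-HDL at an adjusted p under 0.05, 166 (1.59%) in all, with edgeR's quasi-likelihood test and Benjamini-Hochberg adjustment over all tested genes. The higher genes included 22 ribosomal proteins, 6 genes of oxidative phosphorylation and 4 genes that handle oxidants or iron, and Sod1, Got1 and Rpl36a had the smallest p-values among them. In order of p, the lower genes began with Itpripl2, the cyclin Ccnd2, Zfp871, Atl3, Cdon, Arhgap27, Rbpj and Egr2, and Flna, Arhgdia and Spi1 were also among them. Differences were moderate: log2 fold changes ran from 0.44 to 2.62 (median 0.76) among higher genes and from -1.63 to -0.51 (median -0.89) among lower genes, while the median of all tested genes was -0.0041. At an unadjusted p under 0.05, 1642 genes differed. Among the called genes, the arms did not overlap in CPM for 9 higher and 6 lower genes. Over all tested genes, called or not, this held for 10 higher (0.0961%) and 8 lower (0.0768%).

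The 2 sets of called genes differed in transcript length and base composition. The median length of the longest GENCODE transcript per gene was 2178 bases for higher genes, 4073 bases for lower genes and 3631 bases for all tested genes with an annotated transcript. Their median GC content was 47.7%, 53.7% and 48.9% in the same order, and their median mean log2 CPM, the log2 of counts scaled to library size, was 6.50, 4.41 and 4.09. The part of length, composition and level in the calls was not tested beyond the fit with GC and length offsets, which called 80 higher and 25 lower genes.

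With the log2 of the Rn45s share of each library as a covariate, 20 genes (0.192%) were higher and 10 (0.0961%) lower. Of these, 13 and 7 were among the 125 and 41. All 125 higher and all 41 lower genes kept their sign in that fit. The shared genes included Sod1, Got1, Rpl36a, Rpl36al, Rpl23, Rnf149, Rps4x, Rps3a1, Rpl19, Fth1, Tomm40 and Ctsz, higher, and Itpripl2, Ccnd2, Zfp871, Atl3, Egr2, Zfp26 and Mapk10, lower. All other called genes named below missed the threshold in that fit. With log2 counts as a covariate, 30 of the 125 and 3 of the 41 were called again. Sod1, Got1, Rpl36a, Rpl23, Rps6, Itpripl2, Atl3 and Cdon kept their call there. Ccnd2, Zfp871, Egr2, Rbpj, Arhgap27, Txnrd1, Ndufa1 and Gabarapl2 missed it, with edgeR adjusted p from 0.0523 (Rbpj) to 0.164 (Gabarapl2). GC and length offsets ended the calls of Arhgap27, Arhgdia, Flna, Tpt1, Eif2s2, Eef1b2, Btf3, Ndufa1, Atp5h, Txn1, Fabp5, Arpc3, Capzb, Manf, Lyz1 and Spi1 among the genes with values below, and moved Rpl36a and Rpl23 to 0.52 and 0.64, still past the threshold. Counts also depended on single samples. Without TRAF6i-HDL replicate 3, 6 or 8, the higher genes numbered 58, 81 and 46, and without replicate 4 they numbered 189. Without S6K1i-HDL replicate 2, 3, 4, 5 or 6, the higher genes numbered 47, 52, 52, 55 and 59. Lower genes numbered 22, 15, 18 and 17 without TRAF6i-HDL replicate 2, 3, 6 or 8, and 70 and 64 without replicate 4 or 9. Without S6K1i-HDL replicate 2, 3, 4, 5, 6 or 8, the lower genes numbered 9, 16, 14, 11, 17 and 23, and without replicate 9 they numbered 70. TRAF6i-HDL replicate 8 held the highest TRAF6i-HDL value of 82 of the 125 higher genes and the lowest of 16 of the 41 lower genes. Across the 19 fits that each left out 1 of these samples, 33 higher and 7 lower genes passed every time. The number of those 19 fits in which a gene passed is given below for many named genes that did not. Where no number is given, the gene need not have passed every time.

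**Figure D2:**
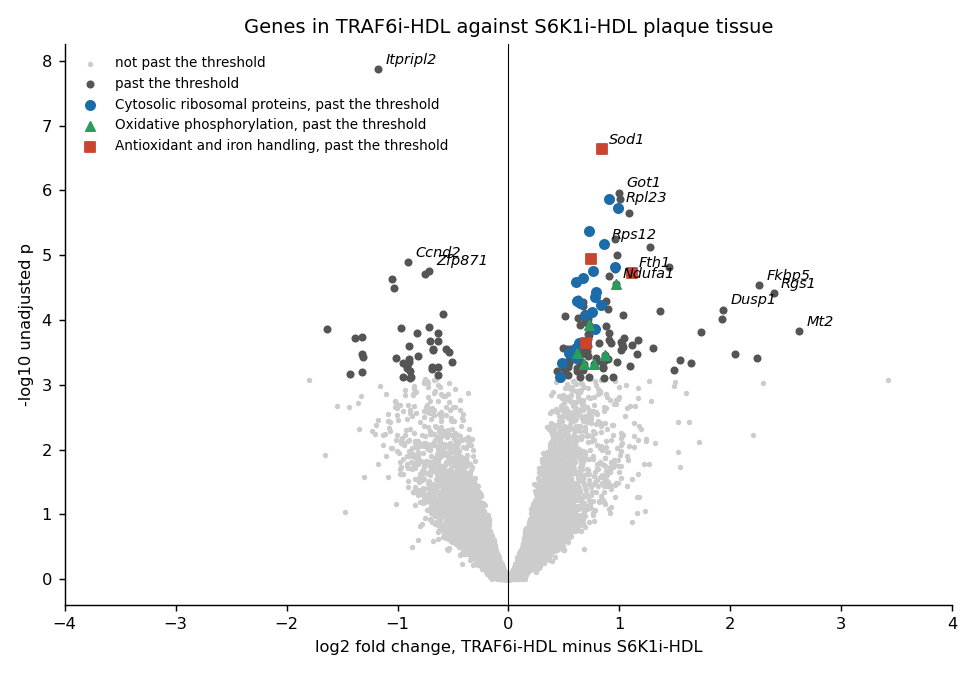
Each point is 1 of 10411 tested genes, with the log2 fold change of TRAF6i-HDL minus S6K1i-HDL on the x axis and minus log10 of the unadjusted p on the y axis. The 22 ribosomal proteins, 6 respiratory chain genes and 4 antioxidant or iron-handling genes past the threshold all lie to the right of 0, and Itpripl2 has the smallest p.

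RNA of the drug targets did not pass the test in either direction. Traf6 lay between 6.59 and 38.7 CPM in TRAF6i-HDL (median 30.3) and between 25.3 and 47.4 CPM in S6K1i-HDL (median 30.9), with a log2 fold change of -0.08 ± 0.16 (SE). The ranges overlapped, with 2 TRAF6i-HDL samples, the lowest being replicate 8, below all S6K1i-HDL samples and 2 S6K1i-HDL samples above all TRAF6i-HDL samples. For this gene edgeR's Poisson bound raised the p, giving an adjusted p of 0.994. Rps6kb1 had a log2 fold change of 0.29 ± 0.15 (adjusted p = 0.363), Rps6kb2, which encodes the related kinase S6K2, 0.07 ± 0.33 (adjusted p = 0.956), and Mtor -0.07 ± 0.19 (adjusted p = 0.904). Cd40 was low, at 2.46 ± 2.51 CPM (SD, n = 10) and 4.13 ± 1.84 CPM (SD, n = 9), with a log2 fold change of -0.62 ± 0.41 that missed the threshold in edgeR's test (adjusted p = 0.474). Of 30 tested genes of CD40, TRAF and NF-kB signalling, none passed, with a median log2 fold change of 0.08. The member with the smallest p was Birc2, an inhibitor of apoptosis and TRAF partner (0.54 ± 0.16, adjusted p = 0.0679). Of 36 tested genes of mTORC1 and S6 kinase signalling, 1 passed, Rps6, and the list's median was 0.07. A p that misses the threshold does not show that levels were equal.

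Cytosolic ribosomal proteins were the largest group among the higher genes. Of 75 tested, 22 (29.3%) were higher in TRAF6i-HDL and none was lower, against 1.2% of all tested genes, and the list's median log2 fold change was 0.44 against -0.0041 over all genes. The point estimate was above 0 for 74 of the 75. In order of p, they included Rpl36a, Rpl23, Rps4x, Rps12, Rps27a, Rpl5, Rps6, Rps23, Rpl22, Rps3a1, Rpl23a, Rpl13a, Rpl17, Fau, Rps20, Rps24, Rpl4, Rpl7 and Rpl19, and the 22 had log2 fold changes between 0.47 and 0.99. Both subunits of the ribosome are represented, and Fau encodes a fusion from which ribosomal protein S30 is released. Ribosomal protein genes have many processed pseudogenes, and Rpl36a and Rpl36al are near copies of each other, so reads of these genes could have been split or set aside as multiply aligned in the authors' counting. Of the 22, 12 passed in all 19 fits that left out 1 sample. The list had 14 members called without TRAF6i-HDL replicate 3, without TRAF6i-HDL replicate 8 or without S6K1i-HDL replicate 2.

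Rpl36a lay between 147 and 402 CPM in the 10 TRAF6i-HDL samples (median 198) and between 77.6 and 142 CPM in the 9 S6K1i-HDL samples (median 112). Every TRAF6i-HDL sample was above every S6K1i-HDL sample, and TRAF6i-HDL replicate 8 was the highest. Rpl36a had a log2 fold change of 0.91 ± 0.17 (SE; edgeR, adjusted p = 0.00284). Rpl23, a protein of the large subunit, spanned 261 to 1062 CPM in TRAF6i-HDL (median 503) and 206 to 301 CPM in S6K1i-HDL (median 268). There, 9 TRAF6i-HDL samples lay above all S6K1i-HDL samples, and the exception was the shallow replicate 7. The log2 fold change of Rpl23 was 0.99 ± 0.19 (adjusted p = 0.00320). Rps6, the substrate of S6K1, spanned 203 to 417 CPM (median 335) in TRAF6i-HDL and 158 to 231 CPM (median 202) in S6K1i-HDL. Again 9 of 10 TRAF6i-HDL samples were above the whole S6K1i-HDL range. Rps6 had a log2 fold change of 0.67 ± 0.14 (edgeR, adjusted p = 0.0102), and 0.59 with the Rn45s share as a covariate (adjusted p = 0.0536). Rps12 of the small subunit reached 184 to 649 CPM in TRAF6i-HDL (median 457) and 174 to 397 CPM in S6K1i-HDL (median 216), with 6 TRAF6i-HDL samples above all S6K1i-HDL samples and a log2 fold change of 0.86 ± 0.17 (adjusted p = 0.00704).

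Ribosomal protein mRNAs of mammals typically begin with a terminal oligopyrimidine tract, a run of C and T bases in the gene that starts at the first transcribed base and through which mTORC1 controls their translation. The tract is shown here because ribosomal proteins were the largest group among the higher genes. RNA counts do not report translation, and a link of the tract to either drug was not tested. The lines give 30 bases on each side of the annotated start in the RefSeq promoter table (GRCm38.p6), 5′ to 3′ on the gene's strand, with capitals for a run of at least 8 pyrimidines that starts with C within 10 bases of that start. Rps6 lies at chr4:86857338-86857397 on the minus strand, Rps12 at chr10:23787180-23787239 on the minus strand, Rpl13a at chr7:45128716-45128775 on the minus strand and Fau at chr19:6057917-6057976 on the plus strand, and Rpl23 at chr11:97782410-97782469 on the minus strand is a called gene with no such run in its window.
Rps6: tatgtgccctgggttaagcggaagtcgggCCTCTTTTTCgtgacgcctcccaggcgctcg
Rps12: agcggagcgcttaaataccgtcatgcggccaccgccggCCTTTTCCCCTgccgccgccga
Rpl13a: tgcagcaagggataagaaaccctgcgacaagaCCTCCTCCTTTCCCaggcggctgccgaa
Fau: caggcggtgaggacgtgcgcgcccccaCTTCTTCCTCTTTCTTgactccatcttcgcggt
Rpl23: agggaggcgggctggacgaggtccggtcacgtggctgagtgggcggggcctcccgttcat
The table holds a promoter for 14 of the 22 higher ribosomal protein genes, and 6 of the 14 (42.9%) had such a run. Among ribosomal protein genes not past the threshold it was 16 of 41 (39.0%), so the called and uncalled members had about the same share. Of all tested genes with an entry, 862 of 7935 (10.9%) had a run, and none of the 32 lower genes with an entry did. A match is a description of these windows, and annotated starts can differ from the starts used in this tissue.

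The level of the ribosomal protein genes as a group is set here beside the Rn45s share of the library, and no association between them was tested. The mean log2 CPM over the 75 genes ran from 7.04 to 7.73 in TRAF6i-HDL (7.45 ± 0.24, SD, n = 10) and from 6.54 to 7.44 in S6K1i-HDL (6.97 ± 0.29, SD, n = 9). The highest S6K1i-HDL values were those of replicates 7 (7.44) and 9 (7.33), the 2 libraries with the lowest Rn45s shares of that arm. With the Rn45s share as a covariate, 5 of 75 were called higher and the median was 0.29. Against S6K1i-HDL replicates 7 to 9 only, none was called and the median was 0.21, and against replicates 1 to 6 only, 36 were called and the median was 0.60. The fit against replicates 7 to 9 called 4 genes in all, so the lack of calls there says little about this list. Replicate 8 had an Rn45s share of 42.1%, so that subset is not one of low share. GC and length offsets left 12 called with a median of 0.27. The part of ribosomal RNA content in the group's difference was not tested, and in bulk tissue fewer cells of a type and less RNA per cell cannot be told apart.

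**Figure D3:**
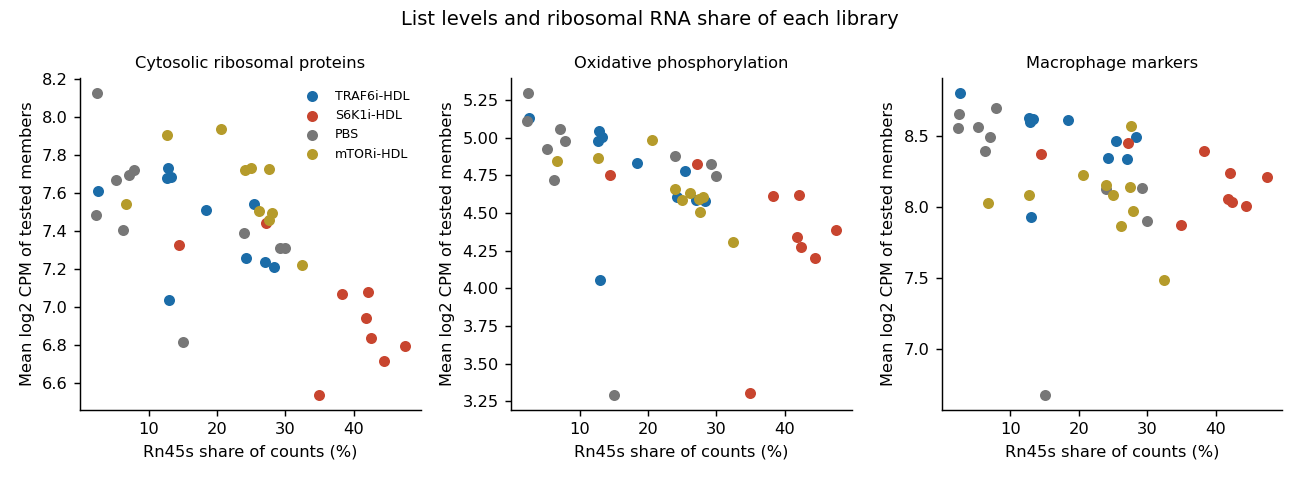
Mean log2 CPM of the tested members of 3 lists (y axes) against the share of counts on Rn45s (x axes, %) in each of the 39 libraries, coloured by group. S6K1i-HDL libraries with shares above 30% lie at the low end of the ribosomal protein panel, and S6K1i-HDL replicates 7 and 9, at 27.2% and 14.5%, lie at 7.44 and 7.33.

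Other parts of the translation machinery showed smaller or no differences. Of 38 tested translation factors, 3 were higher and none lower, beside 1.2% higher over all genes, with a median of 0.19. Eif2s2 encodes the beta subunit of the initiation factor that delivers the first tRNA (0.55 ± 0.15, adjusted p = 0.0346, past the threshold in 8 of 19 fits, up to 0.0771). Eef1b2 encodes an exchange factor of elongation (0.62 ± 0.17, adjusted p = 0.0398, 6 of 19 fits, up to 0.0999). Tpt1, the translationally controlled tumour protein, had a log2 fold change of 0.71 ± 0.18 (adjusted p = 0.0315), passed in 10 of 19 fits and fell to 0.51 without TRAF6i-HDL replicate 8 (adjusted p = 0.113). Among genes outside the lists, Naca and Btf3, subunits of the complex that binds nascent chains at the ribosome, were also higher (0.65 ± 0.16 and 0.60 ± 0.16), and both were named after their values were seen. None of 29 tested ribosome biogenesis genes passed (median 0.11), and none of 15 nuclear long noncoding RNAs did (median 0.11).

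Genes of oxidative phosphorylation were the next group. Of 73 tested, 6 were higher and none lower, beside 1.2% higher over all genes, with a median of 0.35 and 65 of 73 estimates above 0. The 6 were Ndufa1 of complex I, Uqcrfs1, the iron-sulphur protein of complex III, Cox6c of complex IV, and Atp5h, Atp5j and Atp5l of ATP synthase. Ndufa1 lay between 19.4 and 72.5 CPM in TRAF6i-HDL (median 23.9) and between 7.91 and 19.8 CPM in S6K1i-HDL (median 15.2). The ranges met only at the lowest TRAF6i-HDL sample, replicate 7, and the highest S6K1i-HDL sample, replicate 9. Its log2 fold change was 0.97 ± 0.21 (adjusted p = 0.0111), and it passed in all 19 fits. It was 0.55 with the Rn45s covariate (adjusted p = 0.150) and 0.50 with GC and length offsets (adjusted p = 0.106). Cox6c (0.72 ± 0.17, adjusted p = 0.0236) passed in 17 fits, missing without S6K1i-HDL replicate 3 or TRAF6i-HDL replicate 8 (adjusted p up to 0.0695), and Atp5h (0.62 ± 0.16, adjusted p = 0.0321) passed in 12 (adjusted p up to 0.0783). The count of 6 became 2, 3 and 1 without TRAF6i-HDL replicate 3, 6 or 8 and 10 without replicate 9. It became 2, 1, 3, 3 and 2 without S6K1i-HDL replicate 2, 3, 4, 5 or 6 and 10 without replicate 7. With the Rn45s share as a covariate, none of the 73 was called and the median was 0.23, and against S6K1i-HDL replicates 7 to 9 only the median was 0.19. Glycolysis and hypoxia genes had a median of 0.04 with none of 25 past the threshold. Got1, the cytosolic aspartate aminotransferase of the malate-aspartate shuttle, was higher by 0.99 ± 0.18 in log2 (adjusted p = 0.00284) and passed in all 19 fits and with the Rn45s covariate (0.93, adjusted p = 0.0162).

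Genes that handle oxidants and iron included some of the smallest p-values. Of 23 tested, 4 were higher and none lower, beside 1.2% higher over all genes, with a median of 0.27. Sod1, the cytosolic copper-zinc superoxide dismutase, lay between 77.4 and 146 CPM in TRAF6i-HDL (median 118) and between 47.4 and 83.0 CPM in S6K1i-HDL (median 71.5). For this gene 9 of 10 TRAF6i-HDL samples were above all S6K1i-HDL samples, and replicate 7 was the exception. Sod1 had a log2 fold change of 0.84 ± 0.14 (adjusted p = 0.00122), it passed in all 19 fits, and with the Rn45s covariate it was 0.73 (adjusted p = 0.00745). Txnrd1, the cytosolic thioredoxin reductase, lay between 85.5 and 229 CPM in TRAF6i-HDL (median 102) and between 55.3 and 79.7 CPM in S6K1i-HDL (median 63.9). The arms did not overlap. Txnrd1 had a log2 fold change of 0.74 ± 0.15 (adjusted p = 0.00905), and 0.44 with the Rn45s covariate (adjusted p = 0.111). Txn1, its substrate thioredoxin, was higher by 0.70 ± 0.18 in log2 (adjusted p = 0.0301) and passed in 12 of 19 fits, with an adjusted p up to 0.0782 without TRAF6i-HDL replicate 8. Fth1, the heavy chain of the iron store ferritin, lay between 6329 and 15240 CPM in TRAF6i-HDL (median 12934) and between 3890 and 6850 CPM in S6K1i-HDL (median 5743). Only the shallow TRAF6i-HDL replicate 7 fell inside the S6K1i-HDL range. The log2 fold change of Fth1 was 1.11 ± 0.24 (edgeR, adjusted p = 0.00968), and 1.01 with the Rn45s covariate (adjusted p = 0.0467). Fth1 has processed pseudogenes, so its count is uncertain in the same way as those of the ribosomal proteins. With S6K1i-HDL replicates 7 to 9 as the only comparator, a fit that called 4 genes in all, none of the 23 passed and the median was 0.14.

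Many oxidant-response genes carry an antioxidant response element, the site bound by NRF2, whose core was searched here as TGACNNNGC on both strands of the RefSeq promoter window (250 bases before to 50 after the start, GRCm38.p6). It is shown for the 2 called genes of this list that hold it, with the core in capitals, and lies on the minus strand in both, so the letters printed are its reverse complement. The Sod1 window is chr16:90220686-90220734, with the core 56 bases before the start, and the Txnrd1 window is chr10:82859094-82859142, with the core 92 bases before the start.
Sod1: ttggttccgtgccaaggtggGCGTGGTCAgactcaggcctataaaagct
Txnrd1: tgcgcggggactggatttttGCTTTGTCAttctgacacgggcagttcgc
Of 18 tested genes of the list with a promoter entry, 6 (33.3%) held the core, against 17.3% of all tested genes with an entry, 19.3% of the higher genes that are not ribosomal proteins and 15.6% of the lower genes. These matches describe the letters in the windows and draw nothing about the factor.

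**Figure D4:**
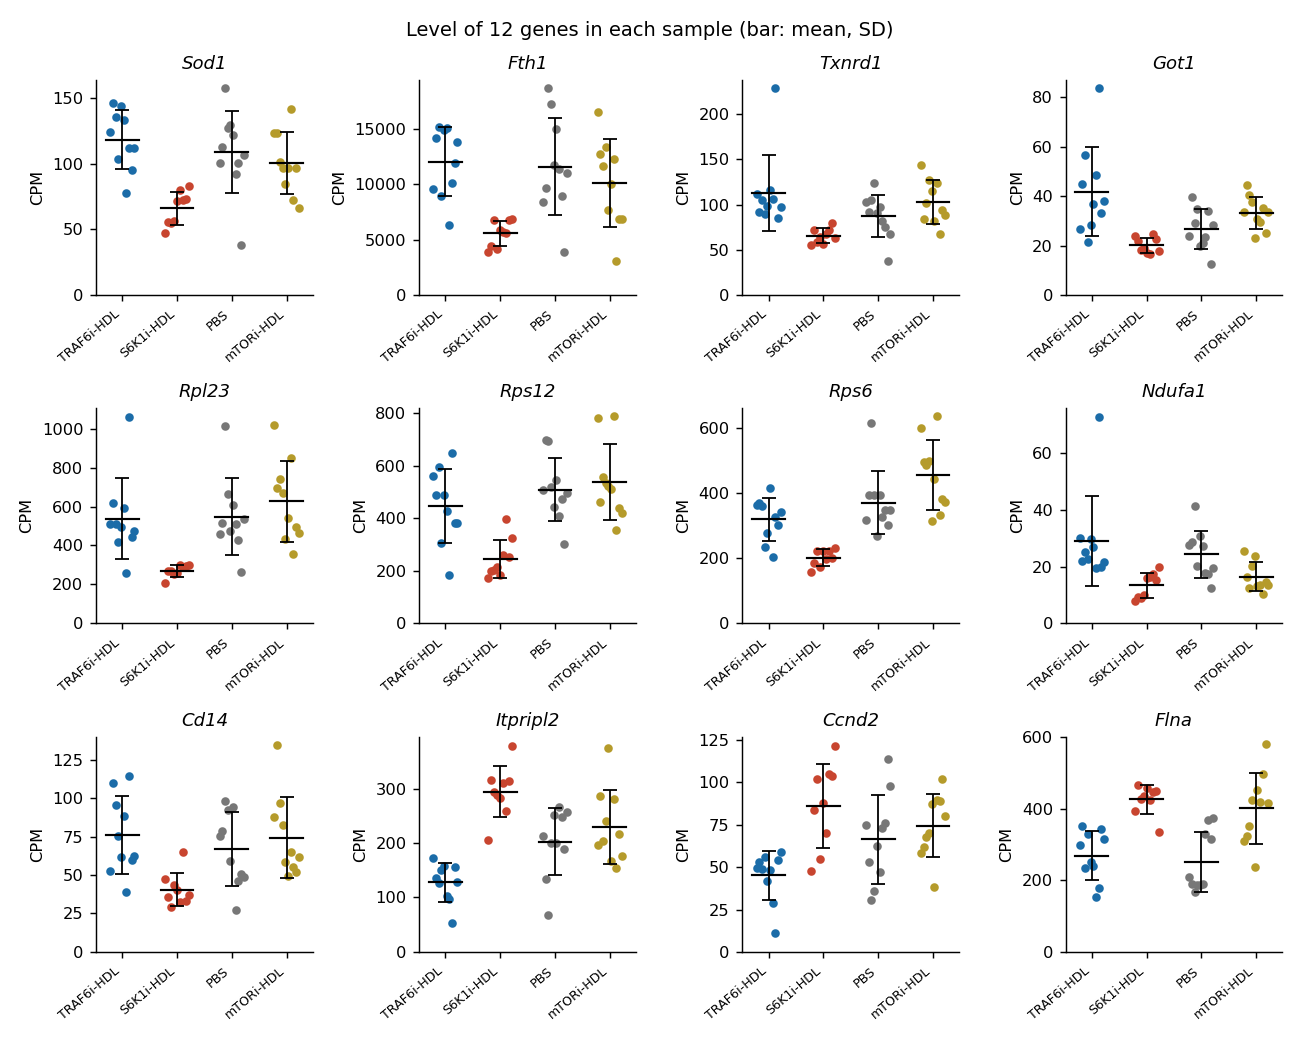
CPM of 12 named genes in every sample of the 4 groups, with the mean and SD as bars. Sod1, Fth1, Txnrd1, Got1, Rpl23, Rps12, Rps6, Ndufa1 and Cd14 were higher and Itpripl2, Ccnd2 and Flna lower in TRAF6i-HDL than in S6K1i-HDL, and for Txnrd1 and Itpripl2 the arms do not overlap.

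Macrophage, foam cell and lysosomal genes gave a mixed picture. Of 24 macrophage markers, Cd14 and Lyz1 were higher and Spi1 lower, beside 1.2% higher and 0.394% lower over all genes, with a median of 0.32. Cd14, the co-receptor for lipopolysaccharide, lay between 38.7 and 114 CPM in TRAF6i-HDL (median 68.7) and between 29.0 and 64.9 CPM in S6K1i-HDL (median 37.1). The ranges overlapped, with 5 TRAF6i-HDL samples above all S6K1i-HDL samples and 5 S6K1i-HDL samples below all TRAF6i-HDL samples. Cd14 had a log2 fold change of 0.96 ± 0.20 (edgeR, adjusted p = 0.00965) in all 19 fits, and 0.75 with the Rn45s covariate (adjusted p = 0.0943). Lyz1, a lysozyme that shares sequence with Lyz2, was higher by 1.04 ± 0.26 in log2 (adjusted p = 0.0286), in 13 of 19 fits and with an adjusted p up to 0.0676 without TRAF6i-HDL replicate 8. Spi1, which encodes the macrophage lineage factor PU.1, was lower, with a log2 fold change of -0.63 ± 0.17 (adjusted p = 0.0393) in 7 of 19 fits (adjusted p up to 0.108). Its ranges of 17.6 to 58.1 CPM in TRAF6i-HDL and 23.7 to 57.3 CPM in S6K1i-HDL nearly coincided. The top of the TRAF6i-HDL range was the shallow replicate 7. Cd68 (0.09 ± 0.18, adjusted p = 0.856) served to choose the tissue and is no finding. Summed over the 24 markers, the level ran from 15028 to 34762 CPM in TRAF6i-HDL and from 13417 to 20141 CPM in S6K1i-HDL, with medians of 24519 and 17155, and its part in the results was not tested.

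Foam cell and lipid-associated genes had a median of 0.44, with 22 of 24 estimates above 0. Only Fabp5, higher, and Ctsk, lower, passed, beside 1.2% higher and 0.394% lower over all genes. Fabp5, a fatty acid binding protein of lipid-laden macrophages, lay between 455 and 1117 CPM in TRAF6i-HDL (median 748) and between 330 and 660 CPM in S6K1i-HDL (median 412). In that arm 7 samples were above all S6K1i-HDL samples. Its log2 fold change of 0.86 ± 0.24 was at the threshold (adjusted p = 0.0497), passed in 4 of 19 fits and reached an adjusted p of 0.101 without TRAF6i-HDL replicate 8. Ctsk, a cathepsin that degrades collagen and elastin, was lower, with a log2 fold change of -0.68 ± 0.18 (adjusted p = 0.0307, 10 of 19 fits, adjusted p up to 0.0828). The list's median was 0.09 with the Rn45s covariate. Of 51 lysosomal genes, Ctsz, a cysteine cathepsin, was higher (0.61 ± 0.17, adjusted p = 0.0415, 6 of 19 fits, up to 0.108 without TRAF6i-HDL replicate 6), and with the Rn45s covariate it was 0.72 (adjusted p = 0.0467). Of 31 autophagy genes, Gabarapl2, which marks the autophagosome membrane, was higher (0.89 ± 0.21, adjusted p = 0.0181) in all 19 fits, and 0.51 with the Rn45s covariate (adjusted p = 0.163). None passed among 24 genes of cholesterol synthesis (median 0.12), 22 of cholesterol efflux and LXR (median -0.08), 25 scavenger and efferocytosis receptors (median 0.17) or 23 Fc gamma receptors and complement genes (median 0.10).

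Inflammatory genes showed few calls. Of 23 genes of interleukin-1, the inflammasome and inflammatory cytokines, Cd14 alone passed, and the list's median was -0.22. None of 33 interferon-stimulated genes passed (median -0.03), and the smallest p there was that of Oas2, an antiviral synthetase (-0.90 ± 0.32, adjusted p = 0.133). None of 19 MHC class II and antigen presentation genes (median 0.23), 29 genes of monocyte recruitment, integrins and adhesion (median 0.02) or 11 genes of alternative activation and resident macrophages (median 0.20) passed. Of 23 immediate early genes, Dusp1 and Klf2 were higher and Egr2 lower, beside 1.2% higher and 0.394% lower over all genes, with a median of 0.06. Dusp1, a phosphatase that switches off MAP kinases, lay between 93.8 and 1084 CPM in TRAF6i-HDL (median 207) and between 76.8 and 166 CPM in S6K1i-HDL (median 86.0). Of the TRAF6i-HDL samples, 6 were above all S6K1i-HDL samples, and replicate 8 was the highest. The log2 fold change of Dusp1 was 1.94 ± 0.43 (adjusted p = 0.0181), and 1.55 without replicate 8 (adjusted p = 0.0549). Klf2, a transcription factor of quiescent endothelium and myeloid cells, was higher by 0.90 ± 0.24 in log2 (adjusted p = 0.0355) in 8 of 19 fits, with an adjusted p up to 0.0742. Manf, a chaperone-like protein of the endoplasmic reticulum, was the only one of 25 unfolded protein response genes to pass (0.68 ± 0.17, adjusted p = 0.0307, 10 of 19 fits, up to 0.0737 without TRAF6i-HDL replicate 8). None of 18 ATF4 and amino acid response genes passed (median 0.11).

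The most different gene in p was lower in TRAF6i-HDL. Itpripl2, a transmembrane protein of the inositol trisphosphate receptor-interacting family, lay between 52.8 and 173 CPM in TRAF6i-HDL (median 133) and between 206 and 379 CPM in S6K1i-HDL (median 293). Every TRAF6i-HDL sample was below every S6K1i-HDL sample, with replicate 8 the lowest. Itpripl2 had a log2 fold change of -1.18 ± 0.18 (adjusted p = 0.000142), it passed in all 19 fits, and with the Rn45s covariate it was -1.10 (adjusted p = 0.00338). Zfp871, a zinc finger protein, spanned 87.1 to 277 CPM in TRAF6i-HDL and 293 to 414 CPM in S6K1i-HDL, with medians of 224 and 351. The arms did not overlap, and its log2 fold change was -0.72 ± 0.15 (adjusted p = 0.00965), or -0.73 with the Rn45s covariate (adjusted p = 0.0180). Atl3, a GTPase that shapes the endoplasmic reticulum, spanned 24.2 to 139 CPM and 145 to 212 CPM, again without overlap, and its log2 fold change was -0.75 ± 0.16 (adjusted p = 0.00981). Cdon, a co-receptor of hedgehog signalling, was likewise without overlap, at 9.69 to 29.0 CPM against 29.4 to 87.0 CPM, with a log2 fold change of -1.05 ± 0.23 (adjusted p = 0.0102).

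Ccnd2, a D-type cyclin, lay between 10.99 and 58.9 CPM in TRAF6i-HDL (median 49.4) and between 47.4 and 121 CPM in S6K1i-HDL (median 87.7). For Ccnd2, 7 of the 9 S6K1i-HDL samples were above all TRAF6i-HDL samples. Ccnd2 had a log2 fold change of -0.90 ± 0.19 (adjusted p = 0.00957) in all 19 fits, and it was the only one of 26 cell cycle genes to pass, in a list whose median was 0.26. With log2 counts as a covariate, Ccnd2 was -0.67 (edgeR, adjusted p = 0.122). Rbpj, the DNA-binding factor of Notch signalling, was lower, with a log2 fold change of -0.59 ± 0.14 (adjusted p = 0.0188) in all 19 fits. Egr2, a zinc finger factor of macrophages and T cells, was lower, with a log2 fold change of -0.72 ± 0.18 (adjusted p = 0.0242), passed in 17 of 19 fits, missing without S6K1i-HDL replicate 5 or 6 (adjusted p up to 0.0558), and was -0.93 with the Rn45s covariate (adjusted p = 0.00532). The cytoskeletal genes were not of 1 direction. Flna, the actin crosslinker filamin A, spanned 155 to 351 CPM in TRAF6i-HDL (median 275) and 334 to 466 CPM in S6K1i-HDL (median 435). Only S6K1i-HDL replicate 9, the one with the lowest Rn45s share of its arm, fell inside the TRAF6i-HDL range. Flna had a log2 fold change of -0.64 ± 0.16 (edgeR, adjusted p = 0.0300), it passed in 12 of 19 fits (adjusted p up to 0.0648), and with the Rn45s covariate it was -0.31 (adjusted p = 0.265). Arhgdia, which holds small GTPases inactive, was lower, with a log2 fold change of -0.64 ± 0.16 (adjusted p = 0.0264, 14 of 19 fits, up to 0.0574), and -0.29 with the Rn45s covariate. Arpc3 of the Arp2/3 complex and Capzb of the actin capping protein were higher in log2, by 0.62 ± 0.14 (adjusted p = 0.0154, all 19 fits, but 0.32 and adjusted p = 0.253 with GC and length offsets) and 0.47 ± 0.13 (adjusted p = 0.0490, 4 of 19 fits, up to 0.0942). Of 42 focal adhesion and cytoskeleton genes, these made 2 higher and 1 lower, Flna, with a median of -0.04. Over all tested genes 1.2% were higher and 0.394% lower. Arhgap27, a GTPase-activating protein, was lower, with a log2 fold change of -1.03 ± 0.23 (adjusted p = 0.0121) in all 19 fits.

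Among other genes higher in TRAF6i-HDL, Rnf149, a ubiquitin ligase of the endosome, spanned 309 to 796 CPM in TRAF6i-HDL (median 482) and 167 to 308 CPM in S6K1i-HDL (median 235). The arms did not overlap, and its log2 fold change was 1.09 ± 0.20 (adjusted p = 0.00335). Atp1b3, a beta subunit of the sodium-potassium pump, was also without overlap, at 301 to 840 CPM against 161 to 285 CPM, with a log2 fold change of 0.96 ± 0.19 (adjusted p = 0.00647). Ctla2a, an inhibitor of cysteine proteases, was higher by 1.28 ± 0.25 in log2 (adjusted p = 0.00715), and Selk, a selenoprotein of the endoplasmic reticulum, by 0.98 ± 0.20 (adjusted p = 0.00855). All 4 passed in all 19 fits. With the Rn45s covariate Rnf149 kept its call (0.80, adjusted p = 0.0473), while Atp1b3 (0.70, adjusted p = 0.0918), Ctla2a (0.85, adjusted p = 0.0938) and Selk (0.60, adjusted p = 0.0943) missed it. None of 31 proteasome subunits passed, with a median of 0.29.

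**Figure D5:**
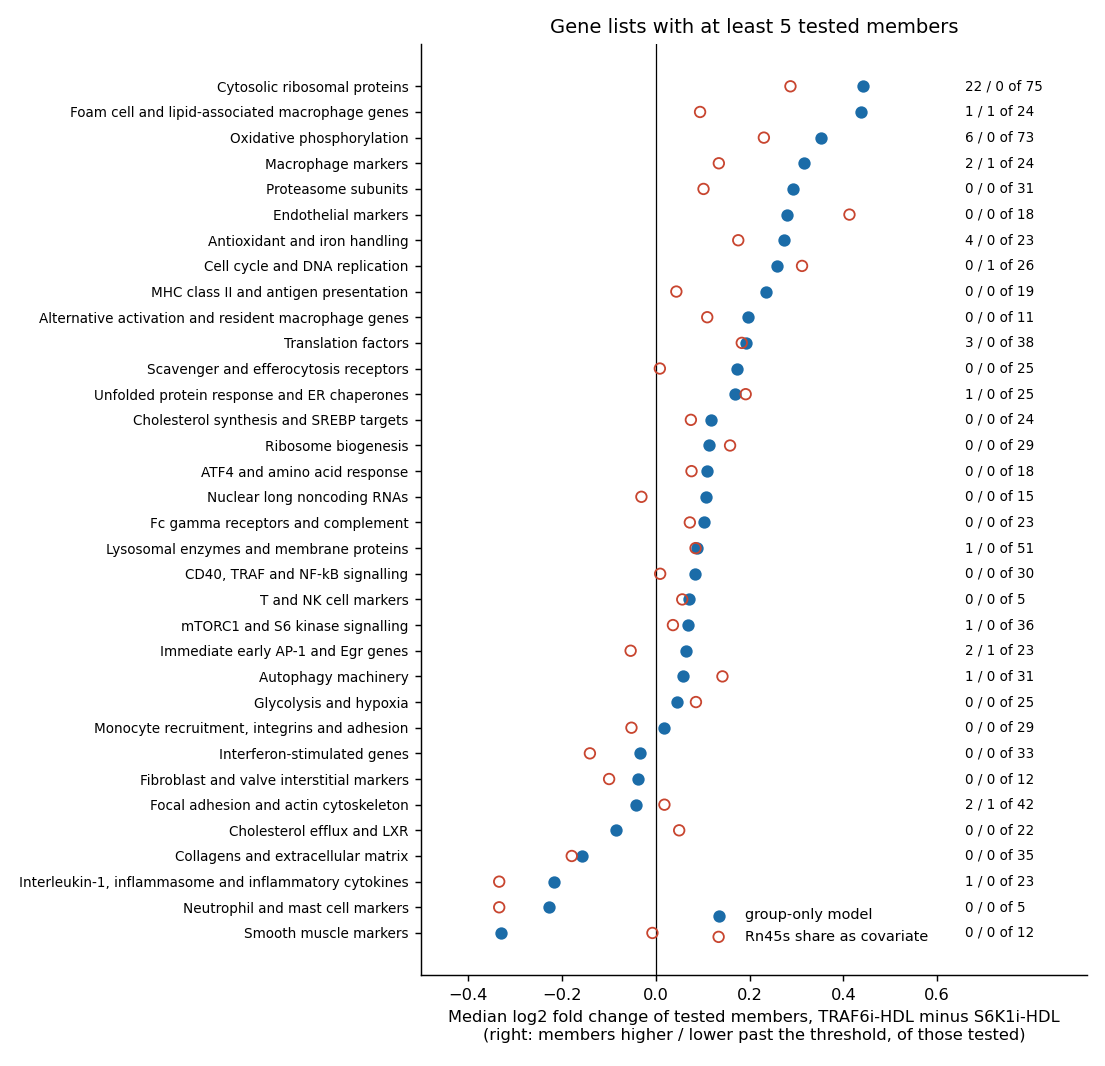
Median log2 fold change of TRAF6i-HDL minus S6K1i-HDL over the tested members of each list with at least 5 of them, in the model with group only (filled) and with the Rn45s share as a covariate (open), with counts of members higher and lower at the right. Ribosomal proteins, at 0.44 and 0.29, had the most calls, and foam cell genes moved from 0.44 to 0.09.

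Of the 38 lists, 14 held a called gene and 24 did not. Each list's count is to be read beside the 1.2% higher and 0.394% lower over all tested genes. Markers of other cells the capture could hold gave no call. The 12 tested smooth muscle markers had a median of -0.33, with summed levels of 673 to 1776 CPM in TRAF6i-HDL and 963 to 1927 CPM in S6K1i-HDL over all 15 markers, and the median was -0.01 with the Rn45s covariate. Endothelial markers had a median of 0.28 over 18 tested, and fibroblast and valve interstitial markers -0.04 over 12. Of 35 collagens and extracellular matrix genes none passed, with a median of -0.16 and 5 estimates above 0. T and NK cell, B cell, neutrophil and mast cell, adipocyte, cardiomyocyte, and erythroid and platelet markers left 2 to 5 tested genes each, too few to describe by a median. Among defining genes of those cells, Camp and Tpsb2, Cidea, Lep and Retn, and the haemoglobin genes Hba-a1, Hba-a2, Hbb-bs, Hbb-bt, Hbb-b1 and Hbb-b2 had 0 counts in both arms. Other members of the same lists were detected. Median summed levels in TRAF6i-HDL and S6K1i-HDL were 82.3 and 89.7 CPM for neutrophil and mast cell markers and 164 and 101 CPM for adipocyte markers. For erythroid and platelet markers they were 22.6 and 15.1 CPM. The 0 counts therefore do not show that these cells were absent. The largest log2 fold change in these lists was that of the B-cell gene Igj, the antibody joining chain (3.42 ± 0.94), which missed the threshold (adjusted p = 0.0505) with a highest value of 137 CPM in TRAF6i-HDL replicate 1 beside a median of 4.69 CPM. Fabp4, an adipocyte and macrophage lipid chaperone, did not overlap between arms (109 to 470 CPM against 57.0 to 107 CPM) yet also missed it (1.27 ± 0.35, adjusted p = 0.0514).

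Both arms and mTORi-HDL were also compared with the same 10 PBS samples, so these comparisons share samples with each other and with the one above. TRAF6i-HDL against PBS called 1 gene higher (0.00961%) and 1 lower (0.00961%) of 10411, 0.0192% in all. S6K1i-HDL against PBS called 568 higher (5.46%) and 674 lower (6.47%), 11.9% in all, and mTORi-HDL against PBS 65 higher (0.624%) and 106 lower (1.02%), 1.64% in all. For the ribosomal proteins, the median log2 fold change was -0.06 in TRAF6i-HDL minus PBS with none called, -0.52 in S6K1i-HDL minus PBS with 46 called lower, beside 6.47% lower over all genes, and 0.05 in mTORi-HDL minus PBS with 1 called higher. For oxidative phosphorylation the 3 medians were -0.09, -0.49 and -0.31 in the same order. Sod1 was 0.11 in TRAF6i-HDL minus PBS and -0.74 ± 0.14 in S6K1i-HDL minus PBS (adjusted p = 0.000915), and Rps6 was -0.20 and -0.87 ± 0.15 (adjusted p = 0.000217). Itpripl2 was -0.64 (adjusted p = 0.174) and 0.54 ± 0.17 (adjusted p = 0.0349). Zfp871 was -0.42 and 0.30, Ccnd2 -0.43 and 0.48, and Got1 0.50 and -0.49, none of which passed. The PBS libraries had an Rn45s share of 12.95% ± 10.9 (SD, n = 10), with a median of 7.49% against 15.9% in TRAF6i-HDL. The PBS shares were uneven, at most 7.89% in replicates 1 to 6 and at least 15.03% in replicates 7 to 10. In TRAF6i-HDL only replicate 8 (2.59%) was below 12.7%. The 2 groups were therefore not matched in Rn45s share.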

How the data were processed

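RNA from laser-captured plaque tissue had been amplified as whole transcriptomes and sequenced, 1 library per sample. The authors deposited raw counts per gene for 39 samples, each file listing 24062 mouse gene symbols, followed by 5 HTSeq summary lines of unassigned reads, which were kept out of library sizes and tests. Per the submitters' processing notes, TopHat2 2.1.0, Bowtie2 2.2.8 and HTSeq 0.6.1 were used, with no role or order given. The same notes list the human build hg19, which cannot hold mouse symbols, so the build of the counts is uncertain. Use of strand is not given in the sources used here. No pair of files was identical. Counts in genes ran from 50091 to 6833491, and 3 libraries held under 200000, which limits their low genes to a few reads. Of all reads, 0.167% to 0.593% were ambiguous between genes.

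The deposited counts were tested in R 4.3.3 with edgeR 4.0.16: genes passing filterByExpr over the 4 groups (10411), TMM scaling, robust dispersions and the quasi-likelihood test with group as the only term over all 39 samples, so that all groups share the estimate of spread. A gene was called at a Benjamini-Hochberg adjusted p under 0.05. SEs were the log2 fold change divided by the square root of F. CPM are counts scaled to a common library size by TMM, and log2 CPM used a prior count of 2. Library measures were compared with an exact permutation test, adjusted over 6. The code was tested on simulated counts.

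Alternatives were limma 3.58.1 (voom with quality weights), DESeq2 1.42.0, DESeq2 size factors, filters, covariates (Rn45s share, detected genes, log2 counts), GC and length offsets from GENCODE M21 transcripts (99.5% of tested genes matched), subsets of samples, and a replicate block. The Rn45s share entered every fit that used it as a covariate as its log2. Named genes were the 12 higher and 12 lower called genes of smallest p (mean log2 CPM 3 or more), up to 3 called members of each of 38 lists (or the member with the smallest p), the targets, and Rps6, Cd68, Apoe and Rn45s. Genes outside this rule are named as chosen after their values were seen, as are Tomm40, Rps3a1, Rpl19, Zfp26 and Mapk10. The comparison, the lists and their members were chosen with earlier results of these data known. Of the lists' members, 8 were not among the symbols in the files. Some items are not reported here.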

Additional observations from a re-analysis of the deposited data

Results flagged for a closer look

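Single samples lying apart from the rest of their arm were looked for in 150 sets of 1 named gene and 1 arm and in 12 sets of 1 library measure and 1 arm, and the values below were picked out because the gap to the nearest other sample passed Dixon's limit. About 1 set in 20 is picked out by chance, and 43 gene values and 2 measures were. They fell mostly on 3 libraries. S6K1i-HDL replicate 1 held 118527 counts in genes and 8270 detected genes, against at least 3843708 and 14018 in the rest of its arm.

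S6K1i-HDL replicate 1 had 17 of these gene values, all in log2 CPM, where -0.34 stands for 0 counts. It was at -0.34 for Imp3, Ddit3, Klf2, Pf4, Cd40, Mtor and Apoe. It was also low for Rpl36al (4.62), Rpl23 (7.69), Ctsz (7.16), Gabarapl2 (3.12), Capzb (6.17), Fmod (4.05) and Il7r (7.38). It was high for Birc2 (6.90), Dusp1 (7.38) and Cxcr2 (6.17).

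TRAF6i-HDL replicate 7, with 66602 counts, was at -0.34 log2 CPM for Nbeal2, Imp3, Ddit3, Smtn, Cxcr2 and Tnnt2. It was low for Zfp871 (6.46), Egr2 (3.39), Cfp (4.33) and Cd68 (8.67), where the other TRAF6i-HDL samples held at least 7.37, 4.30, 5.68 and 9.56.

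TRAF6i-HDL replicate 8, with the lowest Rn45s share of its arm, had an Rn45s level of 14.58 log2 CPM against at least 16.4 in the others. It was high for Rpl36a (8.65), Selk (8.33), Txnrd1 (7.84), Tpt1 (11.6), Ndufa1 (6.20), Gabarapl2 (7.53) and Cd86 (5.41). It was low for Itpripl2 (5.74), Ccnd2 (3.56), Atl3 (4.64), Arhgap27 (2.38) and Traf6 (2.89). The directions match those of the arm's difference for the called genes among these, and the called genes other than Tpt1 passed without this library.

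Elsewhere, S6K1i-HDL replicate 9 was low for Flna (8.39), replicate 7 was high for Lox, the collagen crosslinker (8.72), and replicate 5 was low for Cd86 (2.199).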

How the results depend on the processing

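Directions of the 166 called genes held with the Rn45s covariate, while counts moved with many choices (main counts 125 higher and 41 lower). Totals stayed near 166 with DESeq2 size factors (178), a stricter low-count filter (168), Rn45s left out of the counts (160) and the 3 low libraries left out (173). Of the 166, these shared 159, 163, 158 and 147. Other choices moved the counts of higher and lower genes further. They were 229 and 119 by DESeq2's Wald test, 407 and 287 by limma-voom, 58 and 8 with detected genes as a covariate, 37 and 3 with log2 counts as a covariate, 29 and 9 with the Rn45s share as a covariate and the 3 low libraries left out, 20 and 10 with the Rn45s share alone, 80 and 25 with GC and length offsets, 2 and 2 against S6K1i-HDL replicates 7 to 9 only, 18 and 4 at an adjusted p under 0.01, and 28 and 11 at a log2 fold change of at least 1 in size. A fit of only the 2 arms called 283 genes, 101 of them lower. With the Rn45s share added it called 88, 54 of them higher, and with log2 counts added 121, 18 of them lower. These last 2 settings were added after the data were seen. Leaving out 1 sample gave 46 to 189 higher and 9 to 70 lower genes. The replicate block gave 60 and 24, but same-numbered samples of the 2 arms correlated between -0.207 and 0.126 over 9 numbers, so the numbers do not pair the samples. Of the library measures, detected genes differed by -1209 without the low libraries (exact permutation test, adjusted p = 0.00259), and by -1778 to -522 leaving out 1 sample. The share outside genes differed by 5.86 against S6K1i-HDL replicates 1 to 6 (adjusted p = 0.0150, exact) and by -0.807 against replicates 7 to 9, and by 3.00 to 4.86 leaving out 1 sample. Against replicates 7 to 9 the top 100 share (-4.25), the Rn45s share (-10.1) and the multiply aligned share (-1.68) no longer passed. The causes were not tested.

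Log2 fold changes that changed sign were all of genes short of the threshold. With the Rn45s share as a covariate, without and with the low libraries left out and in the fit of the 2 arms, Lrp1 was 0.035, 0.036 and 0.14, Traf6 0.087, 0.10 and 0.28, and Cd68 -0.11, -0.063 and -0.015. Without the 2-arm fit, Mtor was 0.11 and 0.094 and Apoe -0.40 and -0.40, and in the 2-arm fit Rps6kb1 was -0.018 and Rps6kb2 -0.32. With log2 counts, Traf6 was 0.0045, Mtor 0.25 (2 arms 0.057) and Rps6kb2 -0.24 (2 arms -0.39). Against replicates 7 to 9, Traf6 was 0.065, Mtor 0.056 and Cd68 -0.037, and against 1 to 6 Rps6kb2 was -0.10. With detected genes Mtor was 0.096 and Rps6kb2 -0.20, with GC and length offsets Mtor was 0.11 and Cd68 -0.089, by limma-voom Rps6kb2 was -0.25, and in the block Apoe was -0.075. Without 1 sample, Rps6kb2 ranged from -0.19 to 0.20 and Apoe from -0.11 to 0.16. Libraries under 200000 counts give no reliable value for low genes, and 0 counts there cannot show absence.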

Other observations

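The largest fold changes among the called genes were in genes outside the lists, named here after their values were seen and with no test of them as a group. Mt2, a metallothionein that binds zinc and copper, lay between 19.4 and 256 CPM in TRAF6i-HDL (median 94.9) and between 5.82 and 32.5 CPM in S6K1i-HDL (median 12.9). Of the TRAF6i-HDL samples, 8 were above all S6K1i-HDL samples. The log2 fold change of Mt2 was 2.62 ± 0.62 (edgeR, adjusted p = 0.0262), passed in 13 of 19 fits that left out 1 sample (adjusted p up to 0.0556 without S6K1i-HDL replicate 2) and was 1.80 with the Rn45s covariate (adjusted p = 0.120). Fkbp5, a co-chaperone of steroid receptors, lay between 11.4 and 101 CPM in TRAF6i-HDL (median 62.1) and between 0 and 14.2 CPM in S6K1i-HDL (median 10.4). The 2 lowest TRAF6i-HDL samples fell inside the S6K1i-HDL range. Its log2 fold change was 2.26 ± 0.47 (adjusted p = 0.0113) in all 19 fits, and 1.81 with the Rn45s covariate (adjusted p = 0.0822). Rgs1, a regulator of G protein signalling, had a log2 fold change of 2.39 ± 0.51 (adjusted p = 0.0134) that became 1.64 without TRAF6i-HDL replicate 8 (adjusted p = 0.0549).

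Mt1, Mt2, Fkbp5, Dusp1 and Sgk1 are known to be induced by glucocorticoids. A set of 10 genes tied to glucocorticoids, the receptor gene Nr3c1 among them, was picked after these values were seen. Of the 10, those 5 were called higher and none lower, beside 1.2% higher and 0.394% lower over all tested genes. The median log2 fold change of the 10 was 1.72. The picking makes this a description, so neither the count nor the median can be read against the share over all genes. In the 19 edgeR fits that left out 1 sample, Mt1 passed in 10 (adjusted p up to 0.0824), Sgk1 in 17 (up to 0.0676) and Dusp1 in 18. In TRAF6i-HDL minus PBS, Mt1, Mt2, Fkbp5, Dusp1 and Sgk1 were -0.37, -0.17, 0.35, 0.39 and -0.24, and none was called. In S6K1i-HDL minus PBS the same genes were -2.42, -2.79, -1.92, -1.55 and -0.93, each called lower (edgeR, adjusted p up to 0.0162). The cause was not tested. Tsc22d3, another of the 10, had 1.50 ± 0.41 and missed the threshold (adjusted p = 0.0514). Nr3c1, also of the 10, was not called (0.14 ± 0.11, edgeR, adjusted p = 0.651). Of 14 tested circadian clock genes, also picked afterwards, Per2 (1.03 ± 0.24, adjusted p = 0.0189) and Tef (0.88 ± 0.20, adjusted p = 0.0156) were higher in all 19 fits, beside the same 1.2%, and the median was 0.12. With the Rn45s covariate neither passed (adjusted p = 0.0943 for both). The labels give no hour of collection.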
